A study of Mus musculus with 4 samples.

Results

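Mitochondrial fatty acid oxidation was followed here in the chromatin of inguinal white adipose tissue (iWAT), the subcutaneous depot of the mouse groin, through 10 genes: *Cpt1a*, *Cpt1b* and *Cpt2*, which bring long-chain fatty acids into the mitochondrion, *Acadvl*, *Acadl* and *Acadm*, the acyl-CoA dehydrogenases for very long, long and medium chains, *Hadha* and *Hadhb*, the subunits of the trifunctional protein, *Acaa2*, a thiolase, and *Etfdh*, which passes the electrons on to ubiquinone. The members were named as a pathway, and every peak overlapping the gene body or the 2000 bases upstream was summed. Of the 10 genes, 9 had at least 1 peak, out of 17196 protein-coding genes with a peak. No peak of the table overlapped the *Etfdh* window, and the nearest, at chr3:79590963-79591939, lay 11849 bases from the gene, so *Etfdh* has no value below.

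The tissue came from 21 male C57BL/6 mice aged 8 weeks, wild type throughout, in 7 groups of 3. All had been kept at room temperature (RT, 22 °C) before the intervention, and the control group was collected at day 0 (D0_RT). The others were exposed to cold (6.5 °C in the sample labels, 6 °C in the methods) for 1, 3 or 7 days (D1_C, D3_C, D7_C), or received CL-316,243 (CL), which selectively activates the β3-adrenergic receptor, at 1 mg/kg for the same times (D1_CL, D3_CL, D7_CL). No genetic model was involved, the day-0 mice are the only controls for both treatments, and the labels name no vehicle-treated group.

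Chromatin accessibility was measured by single-nucleus ATAC-seq (snATAC-seq), in which a transposase cuts open DNA, and each of the 189598 peaks was scored as cut or not cut in each of 32552 nuclei. Summed over the nuclei of a mouse and a cell type, these scores give a count, shown after scaling each library to a total of 1e+06 over all gene windows (CPM) or, for single peaks, over all peaks. Between 1111 and 2021 nuclei per mouse gave 1340376 to 6916698 counts. White adipocytes numbered 5935 nuclei in 21 libraries of 23 to 847 nuclei, and beige adipocytes 1069 nuclei in 19 libraries of 12 to 107, since 2 mice after 1 day of CL had fewer than 10 beige nuclei. Those mice had 29 and 68 adipocyte nuclei in all, so that group is the least precise. Barcode sequences were reused between mice (4218 occurred in more than 1), so nuclei were kept apart by mouse and barcode.

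β-oxidation shortens a fatty acid by repeated rounds of dehydrogenation, hydration, a second dehydrogenation and thiolysis in the mitochondrial matrix. Entry is the gated step: carnitine palmitoyltransferase 1 on the outer membrane forms the acylcarnitine, and CPT2 on the inner side turns it back. CPT1A is the form known from liver and most tissues, CPT1B the form of muscle and brown fat. Beige adipocytes are adipocytes of white depots that burn fatty acids for heat through UCP1. Open chromatin at a gene shows that its DNA can be reached, and is not a measure of its transcript.

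The cell types were those of the deposited annotation, and the labels were set against markers. A beige list (*Ucp1*, *Cidea*, *Prdm16* and *Ppargc1b*) summed to 1440 CPM in the beige cluster against 849 CPM in the white one, and was at or under 274 CPM in every other type but one. The exception was the cluster annotated as vascular smooth muscle (VSMC), at 779 CPM. In that cluster 8 of 9 skeletal muscle markers had their highest mean of the 12 types, with *Ttn* at 490, *Mylk4* at 431 and *Ckm* at 293 CPM, whereas of 6 smooth muscle markers only *Lmod1* did, and *Acta2* was at 7.73 CPM. The data therefore go against that label, and the 283 nuclei are called here the cluster annotated VSMC. A list of 6 adipocyte markers summed to 1830 CPM in white and 1720 CPM in beige adipocytes, against 579 CPM or less elsewhere.

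A few stretches of DNA carry the findings that follow. The first lies in the peak over the start of *Cpt1b*, the peak with the largest difference between beige and white adipocytes among the member peaks tested, and holds the bases upstream of the annotated start up to the end of a 300-base window on the peak. Capitals mark CTAAAAATAG, letters known for MEF2 factors, and AAGGTCA, the core known for ESRR receptors, at 216 and 240 bases upstream of the start. The second is an intronic peak of *Hadha* with its single AAGGTCA in capitals. The third is the whole gap between the divergent starts of *Hadha* and *Hadhb*, which lie 86 bases apart, and stands in capitals because the whole gap lies between the 2 starts, in a peak counted for both genes. All are on the plus strand of GRCm38, and the third was taken from the RefSeq promoter table of GRCm38.p6.
Cpt1b, chr15:89425864-89426109: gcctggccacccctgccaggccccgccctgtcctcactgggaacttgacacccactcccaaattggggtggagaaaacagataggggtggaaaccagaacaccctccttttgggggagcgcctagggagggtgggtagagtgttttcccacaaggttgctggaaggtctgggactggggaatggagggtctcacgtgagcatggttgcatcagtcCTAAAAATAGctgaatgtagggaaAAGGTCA
Hadha, chr5:30152083-30152382: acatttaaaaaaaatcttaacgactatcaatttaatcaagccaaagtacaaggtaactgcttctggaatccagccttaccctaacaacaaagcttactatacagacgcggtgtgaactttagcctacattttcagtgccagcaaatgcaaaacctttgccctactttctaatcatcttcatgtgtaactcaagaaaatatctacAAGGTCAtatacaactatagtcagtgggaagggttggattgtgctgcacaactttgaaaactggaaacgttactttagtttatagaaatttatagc
Hadha and Hadhb, chr5:30155163-30155247: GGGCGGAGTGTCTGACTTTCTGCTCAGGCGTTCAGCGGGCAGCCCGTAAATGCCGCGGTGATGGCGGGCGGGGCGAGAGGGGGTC
The gap between the starts is 69.4% G and C and the *Hadha* intronic stretch 36%.

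Across the 12 annotated cell types, beige adipocytes had the highest mean accessibility at 8 of the 9 genes with peaks. The exception was *Cpt1a*, which was highest in macrophages and dendritic cells. The lead over the cluster annotated VSMC was within the spread of that cluster for *Acaa2*, *Acadvl*, *Acadl* and *Cpt1b*. For *Acadm* the lead over white adipocytes was within the spread of the beige libraries. *Acaa2* was at 117 CPM ± 28.9 (SD) in beige adipocytes and 114 ± 64.5 in the cluster annotated VSMC. *Acadvl* was at 64.3 CPM ± 16.3 and 53.5 ± 40.0 in the same order, and *Acadl* at 156 ± 50.2 and 104 ± 58.2. As counts per nucleus in place of CPM, beige adipocytes led at all 9, at a median of 3087 counts per beige nucleus against 2561 per white nucleus and 1128 per macrophage. Per kb of peak, the pathway in beige adipocytes ran from 19.8 CPM for *Cpt1a* to 78.7 CPM for *Cpt1b*, with *Cpt2* at 61.6 and *Hadha* at 55.6 CPM. This scale divides by the length of all peaks of a gene, whether or not they are open in adipocytes. That length was 8.608 kb for *Cpt1a* and 0.895 kb for *Cpt1b*. In white adipocytes it ran from 19.3 CPM for *Acadm* to 44.6 CPM for *Cpt2*. The 2 CPT1 genes came to 19.4 CPM for *Cpt1a* and 20.4 CPM for *Cpt1b* per kb in white adipocytes. That closeness rests on the lengths, since *Cpt1a* peaks near the floor there, such as 1.08 CPM at 9512 bases, add length. It does not rank the 2 genes.

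**Figure D1:**
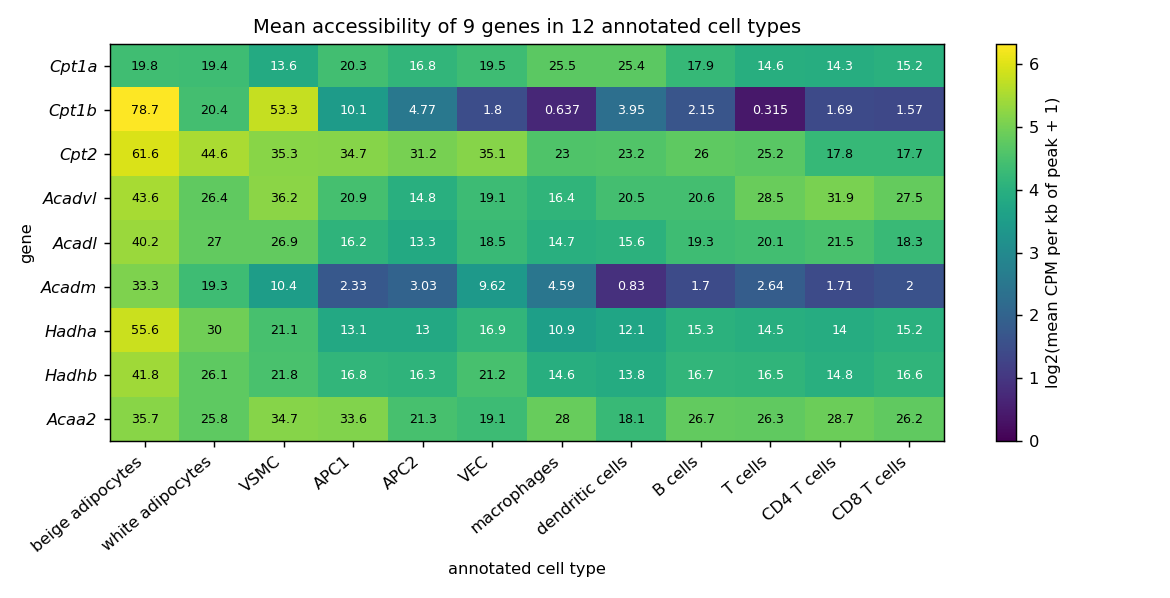
Mean accessibility of the 9 genes with peaks (rows) in the 12 annotated cell types (columns), in CPM per kb of peak; colour shows log2 of the mean plus 1 and the printed number is the mean over mice. The beige column is the highest of every row except *Cpt1a*, and *Cpt1b* and *Acadm* are near 0 in most types other than adipocytes. The *Acadm* row holds no peak over the gene start.

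*Cpt1b* had the most restricted pattern. Its level was 70.4 CPM ± 24.5 (SD, n = 19 mice) in beige adipocytes, 47.7 ± 40.2 (n = 10) in the cluster annotated VSMC and 18.3 ± 8.84 (n = 21) in white adipocytes. APC1 cells, a class of adipocyte progenitors, followed at 9.08 CPM, and the remaining types were between 0.282 and 4.27 CPM. Most libraries of those types were at 0, except in B cells, where 6 of 21 were and the median was 2.01 CPM. Beige and the cluster annotated VSMC differed by less than the spread of the latter, which rests on 30 counts. *Acadm*, whose enzyme acts on medium-chain acyl-CoA, was at 52.6 CPM ± 24.2 in beige and 30.5 ± 8.41 in white adipocytes, and at 16.4 CPM or less elsewhere. None of its 5 peaks lay over the gene start, so its total holds no start peak and is not directly comparable with those of the other genes.

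*Cpt1a* was open in every type. Macrophages and dendritic cells shared the top at 219 CPM each (SD 67.1 over 21 mice and 51.6 over 17), APC1 cells, beige and white adipocytes and endothelial cells (VEC) lay between 167 and 175 CPM, and the cluster annotated VSMC was last at 117 CPM ± 59.6. Within that middle group no neighbours differed beyond their spread. The other genes were intermediate: *Hadha* fell from 262 CPM ± 63.5 in beige and 141 ± 22.6 in white adipocytes to between 51.3 and 99.2 CPM in the other 10 types, while *Acaa2* ran only from 117 CPM ± 28.9 in beige adipocytes to 59.5 ± 25.3 in dendritic cells, with white adipocytes at 84.9 ± 18.4, below 8 other types.

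The flat total of *Cpt1a* hid peaks with very different patterns. Its 14 peaks had their highest mean in 11 different cell types, some by a small margin. The peak at 130 bases was at 15.8 CPM in VEC and 14.6 CPM in T cells. That at 11988 bases was at 13.2 CPM in APC1 cells and 13.0 CPM in B cells. The number of leading types is therefore not a number of distinct patterns. The peak centred 532 bases upstream of the start was at 39.5 CPM in dendritic cells and at 9.81 CPM or less in every other type. A peak 9512 bases into the gene was at 11.8 CPM in B cells and at most 1.9 CPM elsewhere. The last peak, at 56573 bases, was at 32.3 CPM in macrophages, 8.83 in dendritic cells and 8.2 in white adipocytes. The peak at 31486 bases was open in beige adipocytes (21.8 CPM), VEC (21.5 CPM), white adipocytes (18.3 CPM) and APC1 cells (18 CPM), and at 2.21 CPM or less in all lymphoid and myeloid types. By contrast, the peaks at 1099 and 3196 bases were between 14.8 and 57.6 CPM in all 12 types. These levels are described without a test, because the cell types were defined from the same accessibility data.

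**Figure D2:**
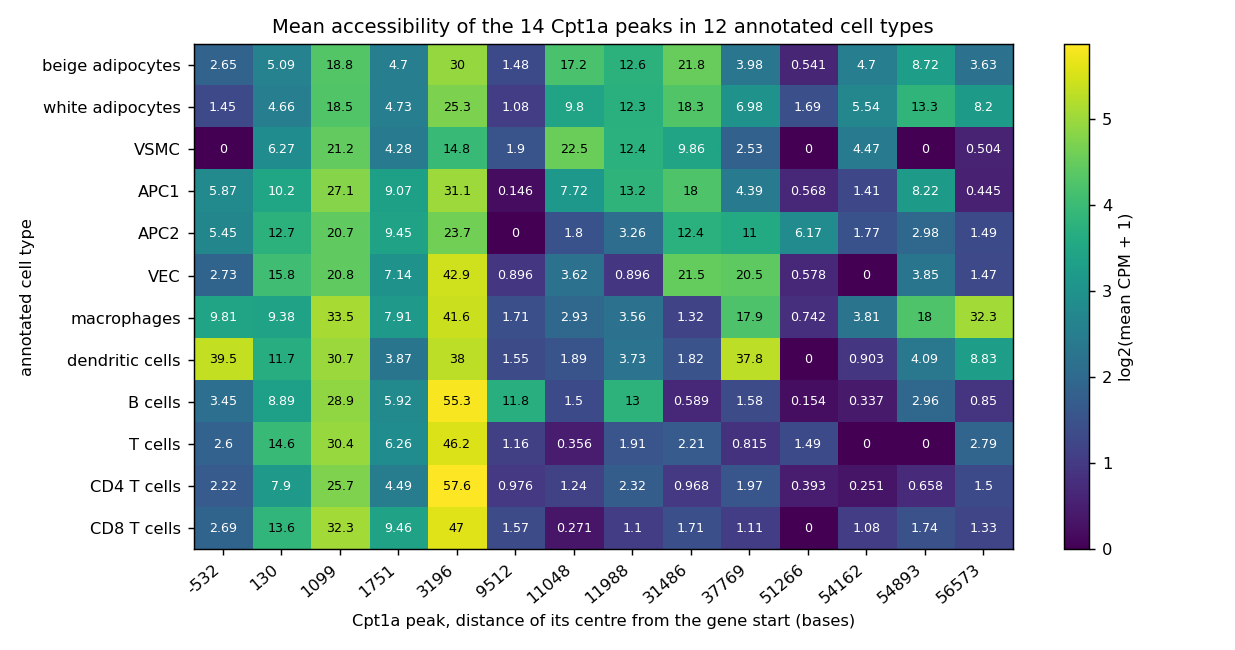
Mean accessibility of each of the 14 *Cpt1a* peaks (columns, by the distance of the peak centre from the gene start in bases) in the 12 annotated cell types (rows); colour shows log2 of the mean CPM plus 1 and the printed number is the mean CPM over mice. The peaks at 1099 and 3196 bases are open in every row, while the peak at -532 bases stands out in dendritic cells, that at 9512 bases in B cells and that at 56573 bases in macrophages.

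*Cpt1b* has 2 peaks. The peak over its start was at 39.6 CPM in beige adipocytes and 39.8 CPM in the cluster annotated VSMC, against 10.4 CPM in white adipocytes. The second, 7178 bases into the gene at chr15:89418500-89418870, was at 16.6 CPM in beige adipocytes, 3.97 in white adipocytes and 1.29 in the cluster annotated VSMC. Both peaks also fall within *Gm44502*, an annotated gene that spans *Cpt1b* and its neighbour *Chkb*, so the counts of the 2 genes cannot be told apart there.

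In the other genes, *Acadm* apart, the start peak was open in all 12 types, while several peaks inside the gene were highest in adipocytes. Not every inner peak followed this. The *Acadl* peak at 24564 bases was at 3.55 to 12.6 CPM in all 12 types, with beige adipocytes at 7.49 CPM. The *Acaa2* peak at 10294 bases was highest in the cluster annotated VSMC, at 8.43 CPM against 3.17 CPM in beige adipocytes. The peak shared by *Hadha* and *Hadhb* was at 35.6 CPM or more in every type, with B cells (58 CPM), CD8 T cells (56 CPM) and T cells (55.2 CPM) at the top and white and beige adipocytes at 36.7 and 42.1 CPM. All 7 other *Hadha* peaks and all 5 other *Hadhb* peaks had their highest mean in beige adipocytes. The *Hadha* peak 19299 bases into the gene was at 55.1 CPM in beige adipocytes, at 32.2 CPM in white ones and at 6.03 CPM or less in every other type. For *Acaa2* the start peak ran from 47.2 CPM to 85.9 CPM in the cluster annotated VSMC, with beige adipocytes at 77.6 CPM below 3 other types, while a peak 14977 bases into the gene was at 10.7 CPM in beige adipocytes, at 7.42 CPM in white ones and at 2.34 CPM or less elsewhere. *Cpt2* likewise had a start peak of 30.6 to 52.5 CPM in all types and intronic peaks at 1455 and 2157 bases that were highest in beige (29.4 and 26.9 CPM) and white adipocytes (23.4 and 17.7 CPM). Of the 5 *Acadm* peaks none lay over the start, and 4 were highest in beige and second in white adipocytes.

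The genes whose log2 levels over the 12 types followed these patterns most closely were taken by Pearson's r among 15016 genes, as a description over types that share libraries and depth. For *Cpt1a* they were *Asah1* (0.959), *Gusb* (0.942) and *Scpep1* (0.924). For *Cpt1b* they were *Abcc8* (0.969), *Dolpp1* (0.968) and *2010003K11Rik* (0.965).

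Beige and white adipocytes were then compared directly, with edgeR's quasi-likelihood test on counts per mouse and Benjamini-Hochberg (BH) adjustment over all 12770 genes tested. Accessibility was higher in beige adipocytes at 8 of the 9 genes and lower at none. Over all genes, 13.6% were called higher and 15.2% lower. The median log2 fold change was 0.72 over the 9 genes and 0.0054 over all genes tested. The clusters were made from these same peaks, so the test gives the size of the differences and is not independent of how the nuclei were sorted. The fit took the white and beige libraries of a mouse as separate, so p-values measure the spread between libraries within groups. Mouse as a block, which pairs them, changed no call of a gene.

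Among the entry genes, *Cpt1b* differed most. White libraries ran from 0 to 34.8 CPM (median 17.9) and beige libraries from 12 to 124 CPM (median 67.9). In 18 of 19 mice the beige value exceeded every white value of the 19. The exception was a mouse after 3 days of CL with 1 count in 43 beige nuclei. The log2 fold change was 1.76 ± 0.14 (SE), or 3.38-fold (adjusted p = 2.07e-21). *Cpt2* was higher by 0.35 ± 0.09 (adjusted p = 0.00105), with 77.3 to 186 CPM in beige and 57.2 to 131 CPM in white libraries, which overlap. *Cpt1a* did not pass the test, with 111 to 219 CPM in beige and 127 to 232 CPM in white libraries. Its log2 fold change was -0.06 ± 0.08 (adjusted p = 0.613), with a 95% interval from -0.21 to 0.09.

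The ratio of the 2 CPT1 genes within each mouse is given as a description, with no test, since the pair was chosen for the difference between its 2 results. The log2 ratio of *Cpt1b* to *Cpt1a* counts was -3.10 ± 0.64 (SD) in white and -1.29 ± 0.62 in beige libraries. The difference was 1.81 ± 1.10 and was positive in 18 of 19 mice. The ratio cancels depth and any factor common to both genes, and compares counts of peaks of unequal total length, so its absolute size has no meaning.

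The dehydrogenases of the first step were all higher in beige adipocytes. The log2 fold change was 0.75 ± 0.13 for *Acadm* (adjusted p = 1.11e-06), 0.72 ± 0.11 for *Acadvl* (adjusted p = 9.67e-08) and 0.52 ± 0.09 for *Acadl* (adjusted p = 9.65e-07). Beige values exceeded white ones in 17, 17 and 15 of 19 mice. *Acadl* ranged from 41.2 to 222 CPM in beige libraries against 58 to 127 CPM in white ones, so the groups overlapped. Of the 4 mice in which *Acadl* was not higher in beige nuclei, 3 were the D3_CL mice, where the order was turned in the whole group, with 83.8, 41.2 and 92.3 CPM in beige against 110, 93.4 and 99.5 CPM in white libraries. Of the later steps, *Hadha*, which carries the hydratase and second dehydrogenase activities, rose by 0.83 ± 0.07 (adjusted p = 4.42e-19) and was higher in all 19 mice, with 166 to 398 CPM in beige and 109 to 203 CPM in white libraries. *Hadhb*, the thiolase subunit, rose by 0.75 ± 0.08 (adjusted p = 8.39e-14, 18 of 19 mice). *Acaa2* rose by 0.48 ± 0.09 (adjusted p = 4.61e-06, 17 of 19 mice).

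**Figure D3:**
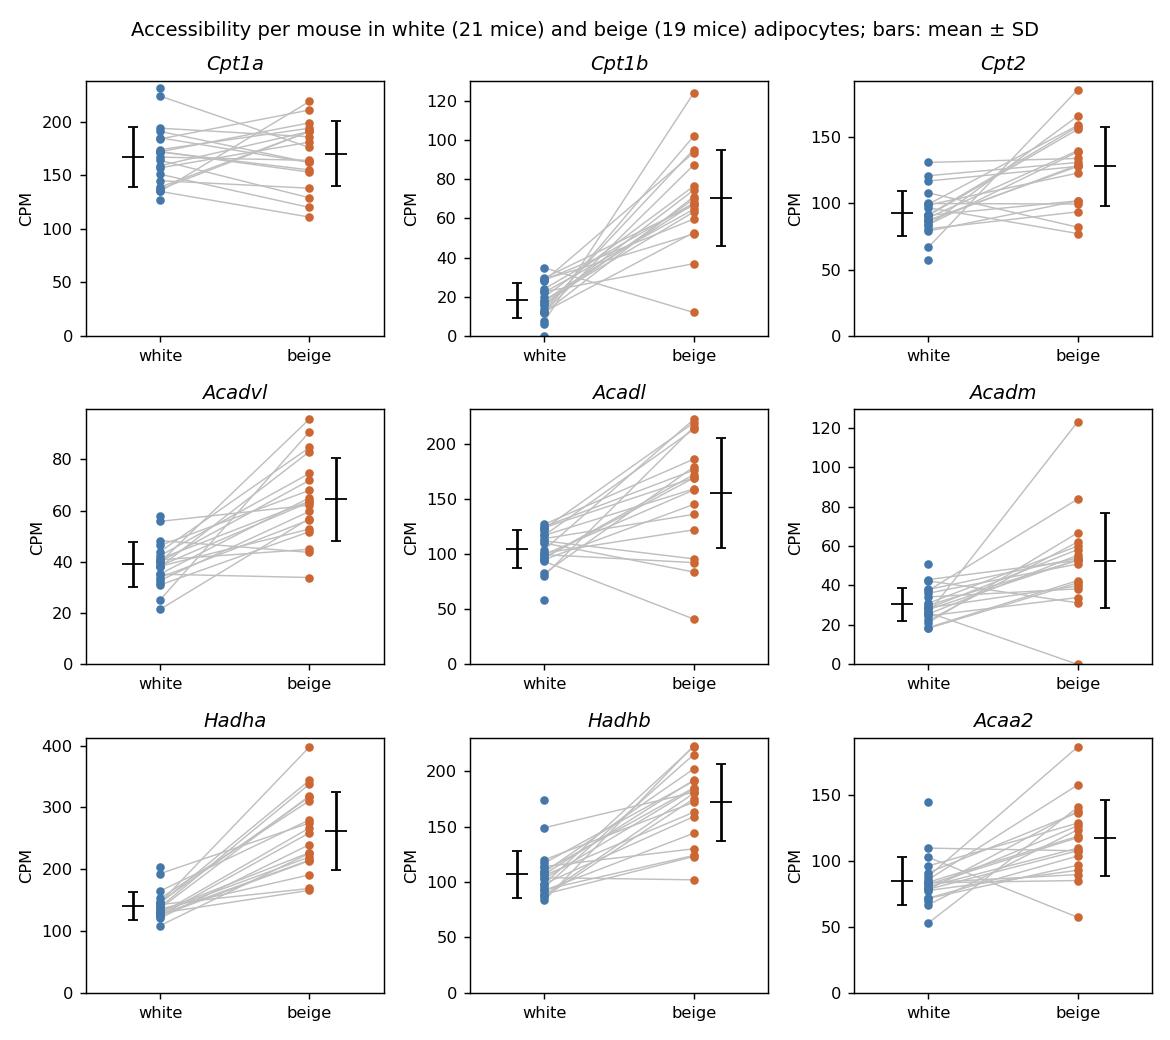
Accessibility in CPM of each gene in white (21 mice) and beige (19 mice) adipocytes; points are mice, grey lines join the 2 libraries of a mouse, and bars show the mean ± SD. Beige values lie above white ones in 15 to 19 of 19 mice for every gene but *Cpt1a*, where lines cross in both directions (8 of 19 higher).

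Single peaks showed where along the genes the difference lay. The 9 genes had 52 distinct peaks, of which 23 were deep enough to test, and 15 of these were higher in beige adipocytes and none lower. Over all 24854 peaks tested, 12.8% were called higher and 14.4% lower. The filter shaped that count, since a peak could pass through the libraries in which it was high. All 23 peaks that passed had a higher mean CPM in beige than in white libraries, against 20 of the 29 that did not pass, so the 15 are a description of the deeper peaks. With mouse as a block, which pairs the white and beige libraries of an animal, 30 member peaks were tested, 19 were higher, and 1 was lower, the *Cpt1a* peak at 54893 bases (-0.85, adjusted p = 0.00281). Over all 34063 peaks tested in that fit, 3805 were called higher and 5946 lower, with a median log2 fold change of -0.10. Of the 15 that were higher, 8 overlapped an annotated exon of their gene and 7 were intronic.

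At the gene starts the difference was uneven. The *Cpt1b* start peak (chr15:89425698-89426223) was at 10.4 CPM ± 5.25 (SD) in white and 39.6 ± 12.7 in beige adipocytes, a log2 fold change of 1.64 ± 0.16 (SE, adjusted p = 2.86e-21, higher in 18 of 19 mice). The start peaks of *Acadvl* (0.61 ± 0.14, adjusted p = 0.00019), *Acadl* (0.42 ± 0.11, adjusted p = 0.000645) and *Acaa2* (0.32 ± 0.09, adjusted p = 0.00467) were also higher. With a looser filter (at least 1 count in every second library), *Acadl* (0.22, adjusted p = 0.151) and *Acaa2* (0.12, adjusted p = 0.405) were no longer called. The median over all peaks tested was -0.33 under that filter. *Acaa2* was also lost without D1_CL replicate 3 (adjusted p = 0.0733). The *Acadvl* start peak lies in the window of *Dlg4* as well. The start peaks of *Cpt2* (0.17 ± 0.12, adjusted p = 0.348) and the peak shared by *Hadha* and *Hadhb* (0.18 ± 0.12, adjusted p = 0.271) did not pass the test. That of *Cpt1a* was too shallow to test, at 4.66 CPM (white) and 5.09 CPM (beige).

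The divergent pair *Hadha* and *Hadhb* was the clearest case of a difference away from the start. Their shared peak, chr5:30154443-30155676, which contains the GC-rich gap printed above, was at 36.7 CPM ± 7.71 in white and 42.1 ± 14.2 in beige adipocytes. Inside *Hadha*, the 6 other peaks tested were all higher in beige, by 0.58 to 1.27 on the log2 scale. The largest difference was at the intronic peak printed above (chr5:30152080-30152387), centred 2929 bases into the gene, with 8.5 CPM ± 3.89 in white and 27.8 ± 12.8 in beige adipocytes (1.27 ± 0.20, adjusted p = 1.39e-08, 18 of 19 mice). In *Hadhb*, the 3 other peaks tested were higher too, and the one 17060 bases into the gene rose from 16.4 ± 8.1 to 32.4 ± 15.8 CPM (0.95 ± 0.16, adjusted p = 1.86e-07).

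As a description chosen after those values were seen, the log2 ratio within mice of the other *Hadha* and *Hadhb* peaks to the shared start peak was 1.62 ± 0.36 (SD) in white and 2.55 ± 0.54 in beige libraries. The difference of 0.93 ± 0.66 was positive in 18 of 19 mice and was not tested. With only peaks within 2000 bases of a start, *Hadha* and *Hadhb* each differed by 0.24 (adjusted p = 0.204), and 5 of 8 genes tested were higher, where 5.23% of all genes were called higher and 6.3% lower.

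**Figure D4:**
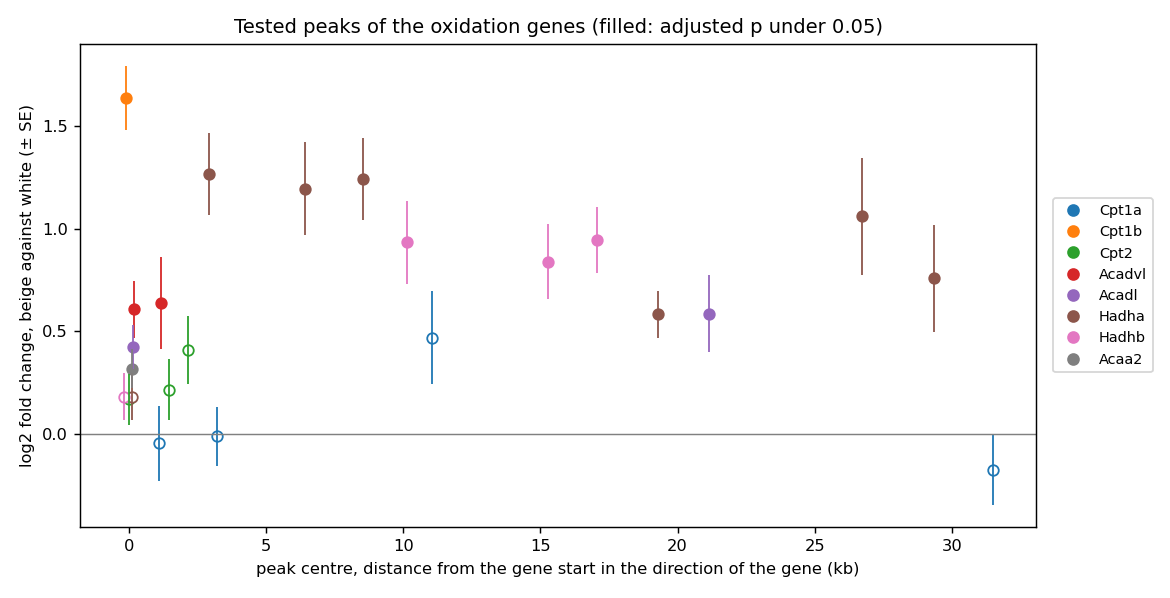
Log2 fold change of beige against white adipocytes (± SE) for each tested peak, by the distance of its centre from the gene start in kb along the gene; filled circles have an adjusted p under 0.05, and the peak shared by *Hadha* and *Hadhb* is drawn once for each gene. The *Cpt1b* start peak is the highest at 1.64, the *Hadha* and *Hadhb* peaks inside the genes lie between 0.58 and 1.27, and the 4 *Cpt1a* peaks are open circles.

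Of the 4 *Cpt1a* peaks tested none was called, from -0.18 ± 0.17 at 31486 bases to 0.47 ± 0.23 at 11048 bases (adjusted p = 0.496 and 0.114). Several of the others were too low in beige libraries for the filter. With a looser filter (at least 1 count in every second library, 46 member peaks tested), 15 member peaks were higher and 3 lower, and all 3 lower were in *Cpt1a*. Their values were -1.49 at 37769 bases, -0.92 at 54893 bases (adjusted p = 0.0013) and -1.45 at 56573 bases. Their white and beige means were 6.98 and 3.98, 13.3 and 8.72, and 8.2 and 3.63 CPM. Under that filter, however, the median over all 111805 peaks tested was -0.33, against -0.05 with the main filter, and 22.6% of peaks were called lower and 5.75% higher, so the 3 calls stand beside a shift of the whole table in the same direction. None of the 5 *Acadm* peaks was deep enough for the main test. The one with the highest beige mean, 12048 bases into the gene, was at 6.63 CPM in white and 15.1 CPM in beige adipocytes. It was higher in 15 of 19 mice. The one with the highest white mean, at 1459 bases, was at 8.7 CPM in white and 9.05 CPM in beige adipocytes. That peak was higher in 10 of 19 mice.

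Motif letters were counted on both strands in the central 300 bases of every peak. AAGGTCA was present in 2 of 52 member peak windows (3.85%) and in 7.22% of all 189598 windows. CTAAAAATAG was present in 1 (1.92%), that of the *Cpt1b* start, and in 0.271% of all. These were chosen after the sequences were seen. The longer TCAAGGTCA, which contains AAGGTCA, and AGGTCANAGGTCA, which can overlap it, were in no member window and in 0.633% and 0.0997% of all. In the RefSeq promoter table, which held 8 of the 10 members, AAGGTCA was found in *Acadm* alone, and in 4.72% of 32851 promoters.

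The wider pathway was less uniform than its 9 members. Of 57 further genes of fatty acid activation, oxidation and its control, 56 were tested, 23 were higher in beige adipocytes and 5 lower, beside 13.6% higher and 15.2% lower over all genes, with a median log2 fold change of 0.16. In activation and carnitine entry, 5 of 12 were higher and 2 lower, led by *Slc27a2*, a fatty acid transporter and very long-chain acyl-CoA synthetase (2.01 ± 0.14, adjusted p = 8.99e-25) and *Acsl5*, a long-chain acyl-CoA synthetase (1.04 ± 0.09, adjusted p = 4.13e-20). *Cpt1c*, the CPT1 form known from brain, was lower (-0.87 ± 0.22, adjusted p = 0.000905). Among other matrix enzymes 7 of 16 were higher and 1 lower. *Decr1*, needed for unsaturated chains, *Acads*, for short chains, and *Hadh*, for short-chain hydroxyacyl-CoA, rose by 0.57, 0.50 and 0.49. Of the electron transfer genes *Etfb* rose by 0.45 and 1 more was tested without passing. In the peroxisomal list 2 of 13 were higher and 1 lower, close to the shares over all genes, with the fatty acyl transporters *Abcd3* at 0.45 and *Abcd2* at -0.57 and the racemase *Amacr* at 0.38. Of 13 genes of control 8 were higher and 1 lower, led by the nuclear receptors *Ppara* (0.81 ± 0.08, adjusted p = 8.3e-17) and *Esrrg* (0.67 ± 0.06, adjusted p = 6.61e-18) and the coactivator *Ppargc1b* (0.65 ± 0.06, adjusted p = 1.56e-17), which is also on the beige marker list. With peaks near the start only, *Etfb*, *Decr1*, *Acads*, *Hadh*, *Abcd3* and *Amacr* were no longer called.

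To ask whether the treatments changed the pathway in adipocytes as a whole, white and beige nuclei of each mouse were summed and each treated group was compared with the same 3 day-0 mice. In bulk sums of this kind, more beige nuclei and more accessibility per nucleus cannot be told apart. The beige share of adipocyte nuclei was 7.69 to 12.2% at day 0, 26.1 to 32.5% on D7_C and 14.5 to 23.5% on D7_CL. Of 54 comparisons (9 genes in 6 groups), 3 passed the test. The share of all genes called was 0.34% on D1_C, 1.68% on D3_C, 5.08% on D7_C, 2.61% on D1_CL, 4.77% on D3_CL and 7.81% on D7_CL.

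Both calls upward were *Cpt1b* on day 7. The day-0 mice were at 20.4, 14 and 15 CPM. After 7 days of cold the values were 40.6, 40.4 and 32.5 CPM, all above day 0 (1.16 ± 0.28, adjusted p = 0.00486). After 7 days of CL they were 33.2, 29.1 and 44.2 CPM, likewise above it (1.05 ± 0.27, adjusted p = 0.00767). At earlier times 3 groups also lay above all day-0 mice, without passing the test. They were at 21.9, 27.3 and 31.6 CPM on D1_C, 23.3, 24.3 and 22.3 on D3_C, and 30.6, 22.7 and 23.5 on D3_CL. Only D1_CL overlapped with day 0, at 20.5, 11.2 and 27.1 CPM. Without the third day-0 mouse neither day 7 comparison passed (1.03, adjusted p = 0.108, and 0.91, adjusted p = 0.133), and DESeq2 gave these no adjusted p. A list of B cell markers summed to 1110 to 1370 CPM in the day-0 adipocyte libraries. It was at 1010 to 1060 CPM on D7_C and 1120 to 1140 CPM on D7_CL. The list is not particular to B cells. It summed to 934 CPM in APC1 cells and 337 CPM in CD4 T cells, against 2430 CPM in B cells. A list of T cell markers was at 30 to 59.3 CPM at day 0, 26.7 to 34.9 on D7_C and 39.5 to 42.6 on D7_CL. The part of either list in these results was not tested.

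The third call was *Acadl* after 3 days of CL, at 105, 88.6 and 99.1 CPM against 131, 130 and 128 CPM at day 0 (-0.43 ± 0.14, adjusted p = 0.0457). It lay just under the threshold and was lost with DESeq2 (adjusted p = 0.174), without any one of the day-0 mice (0.0892 to 0.15), and without D3_CL replicate 2 (0.267) or 3 (0.0621) or D7_CL replicate 2 (0.051). The B cell list was at 1060 to 1100 CPM in the D3_CL libraries, below the 1110 to 1370 CPM of day 0. The T cell list was at 37.2 to 41.4 CPM there, inside its day-0 range of 30 to 59.3 CPM. The part of either list in this result was not tested. For *Acadl* the day-0 values exceeded those of all mice in the 3 cold groups too, with 116, 107 and 121 CPM on D1_C, 96.6, 107 and 111 CPM on D3_C and 122, 120 and 110 CPM on D7_C, without passing the test. The remaining CL groups overlapped with day 0 and each held a mouse above it. They were at 81.9, 129 and 133 CPM on D1_CL and 105, 117 and 146 CPM on D7_CL.

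*Acaa2* leaned the other way, from 83.8, 70.2 and 58.9 CPM at day 0 to means of 85.8 to 97.3 CPM in the 6 treated groups, with overlap in most and its lowest adjusted p at 0.0838 on D3_CL (0.45 ± 0.16). *Hadha* was at 182, 162 and 158 CPM at day 0 and between 125 and 246 CPM in treated mice, and *Cpt2* at 100, 73.8 and 101 CPM against 61.8 to 131 CPM, so that day 0 lay inside the treated range for both. *Acadm* was at 22.5, 24.6 and 32.4 CPM at day 0 and 40.9, 33.3 and 39.6 CPM on D7_CL, which did not overlap but did not pass the test (0.49 ± 0.23, adjusted p = 0.198). *Acadvl* had day-0 mice from 26.6 to 56.2 CPM and treated mice from 28.1 to 61.4 CPM.

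Within white adipocytes alone, *Cpt1b* was at 11.9, 7.44 and 12.4 CPM at day 0 and at 28.9, 22.3 and 28.2 CPM on D7_CL, with no overlap (1.26, adjusted p = 0.0195). On D7_C it was at 24.1, 29.6 and 16 CPM (0.94, adjusted p = 0.256). This was 1 call in 54, where the shares over all genes were 0.2% on D1_C, 1.11% on D3_C, 1.87% on D7_C, 1.93% on D1_CL, 4.37% on D3_CL and 6.74% on D7_CL. It was lost without any one of the day-0 mice or the first D7_CL mouse (adjusted p up to 0.243, without the latter). *Acadl* was at 117, 127 and 125 CPM in white nuclei at day 0 and at 110, 93.4 and 99.5 CPM on D3_CL, again without overlap, and did not pass the test there (-0.32 ± 0.14, adjusted p = 0.206).

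In beige nuclei alone, a comparison added after the values were seen, 7353 genes were deep enough to test over 19 libraries, and the 1 library of D1_CL was assumed to vary like those of the other groups. Again 1 of 54 comparisons passed, *Acadl* on D3_CL. It was at 213, 186 and 176 CPM at day 0 and at 83.8, 41.2 and 92.3 CPM on D3_CL, below all 3 day-0 mice (-1.58 ± 0.40, adjusted p = 0.0438). These values rest on 15, 3 and 10 counts at day 0 and 7, 11 and 10 on D3_CL. The call was lost with DESeq2 (adjusted p = 0.269), with no filter (0.0968), with peaks near the start only (0.364), without any one of the day-0 mice (0.403, 0.0982 and 0.207), without D3_CL replicate 2 (-1.07, adjusted p = 0.457) and without D1_C replicate 2 (0.0544). Whether the change differs from that in white nuclei was not tested. The share of all genes called in beige nuclei was 0.0272% on D1_C, 0.544% on D3_C, 0.449% on D7_C, 0.15% on D1_CL, 0.245% on D3_CL and 0.218% on D7_CL. *Hadha* was at 398, 311 and 317 CPM at day 0, against 191, 214 and 166 CPM on D3_CL (-0.77 ± 0.27, adjusted p = 0.279) and 169 CPM in the D1_CL library (-0.98 ± 0.31, adjusted p = 0.169). Neither group overlapped with day 0, and neither passed the test. *Cpt1b* in beige nuclei averaged 82.6 CPM at day 0 (52.8 to 124), 68.2 on D7_C (0.05, 95% interval from -0.90 to 0.99), 70.1 on D7_CL (-0.08, from -1.05 to 0.88) and 38.8 on D3_CL, and none of its comparisons passed. Its day-0 values rest on 5, 2 and 3 counts, the highest of them, 124 CPM, on 2 counts in 12 nuclei.

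**Figure D5:**
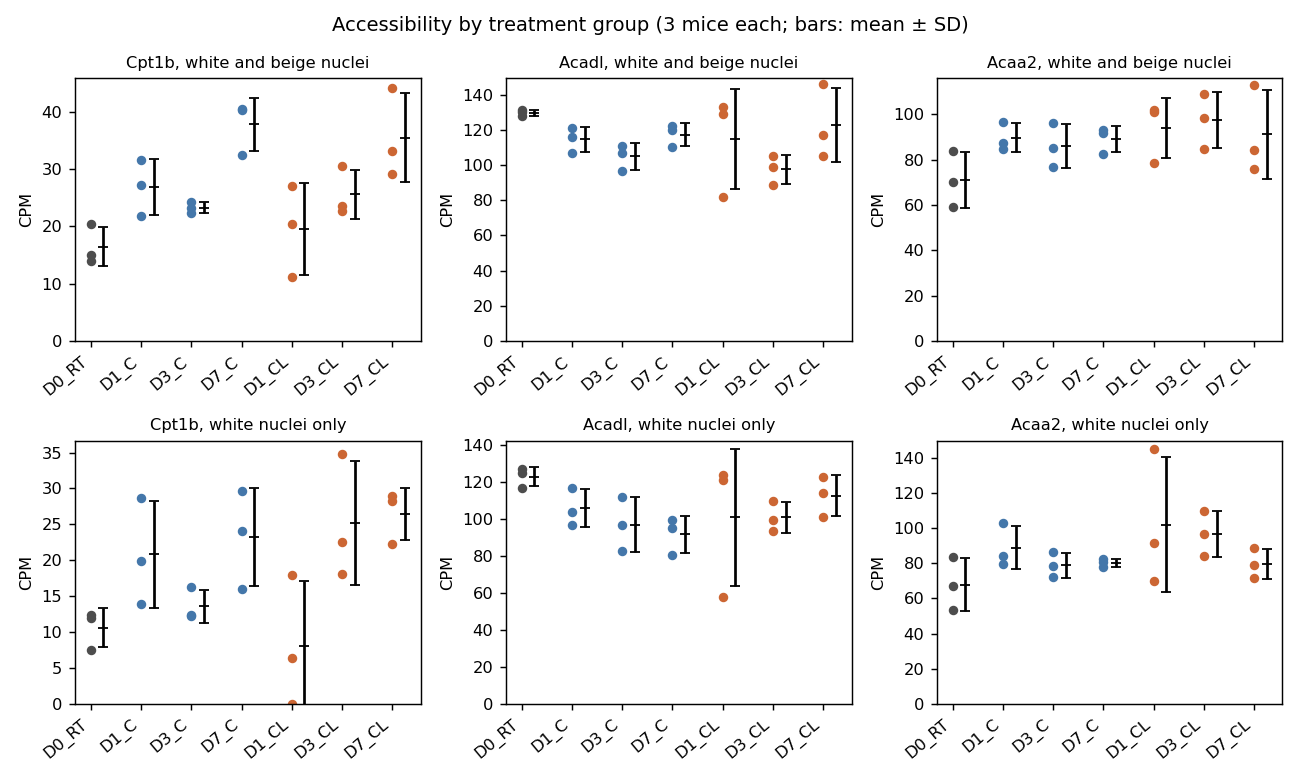
Accessibility in CPM of *Cpt1b*, *Acadl* and *Acaa2* by group, in white and beige nuclei together (upper row) and in white nuclei only (lower row); points are mice, bars show the mean ± SD of 3 mice. In the upper row *Cpt1b* lies above all 3 day-0 mice in every treated group except D1_CL, and passed the test on D7_C and D7_CL only. *Acadl* at day 0 lies between 128 and 131 CPM there, above the D3_CL mice.

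Averaged over the 6 treated groups, none of the 9 genes passed the test against day 0 (4.17% of all genes did; 2 of the 9 had an unadjusted p under 0.05, and DESeq2 called none). *Cpt1b* came nearest, at 0.75 ± 0.26 (adjusted p = 0.078), followed by *Acaa2* at 0.38 ± 0.14 (adjusted p = 0.12). For *Cpt1a* the value was -0.10 with a 95% interval from -0.31 to 0.10, and for *Hadha* -0.12 from -0.34 to 0.10. Of the 56 tested genes of the wider pathway 4 were higher and none lower: *Acsl5* (0.58, adjusted p = 0.0219), *Prkaa2*, a catalytic subunit of AMP-activated kinase (0.52, adjusted p = 0.0167), *Pparg*, the receptor that governs adipocyte identity (0.33, adjusted p = 0.0101), and *Acacb*, whose product malonyl-CoA inhibits CPT1 (0.33, adjusted p = 0.021). Each of the 4 was lost with peaks near the start only and without some of the day-0 mice: *Acsl5* and *Acacb* without any one of them (adjusted p up to 0.136 and 0.229), *Prkaa2* without the first or second (0.257 and 0.0774) and *Pparg* without the third (0.198). *Acsl5* and *Prkaa2* were also lost without the third D1_CL mouse (0.073 and 0.0981). In white nuclei alone, 2 of the 56 genes were higher over the mean of the treated groups and 0 lower. Both were genes of control, so *Acsl5* was not called there. DESeq2 called 1 of the 56 higher in white nuclei. The share of all genes called is not given for this comparison, so these counts have no background beside them.

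*Hadhb* gave a different answer when the peak it shares with *Hadha* was left out, a split made after the values were seen. By its other peaks it was at 62.3, 52.9 and 54.7 CPM at day 0 and between 67.9 and 152 CPM in the 18 treated mice, without overlap. The highest of these rested on 6 counts. Its mean change was 0.56 ± 0.17 (adjusted p = 0.0395, where 4.66% of genes passed) and on D7_C 0.87 ± 0.20 (adjusted p = 0.00192, where 5.86% passed). *Hadha* by its own other peaks changed by -0.09 ± 0.13 on average (adjusted p = 0.775). The mean change was lost without any one of the day-0 mice (adjusted p = 0.0855, 0.113 and 0.311 without replicate 1, 2 and 3) and with DESeq2 (adjusted p = 0.0864), and the D7_C value without day-0 replicate 3 (adjusted p = 0.0576).

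Cold and CL were compared directly on the same day. None of the 27 comparisons passed, where 0.922%, 1.46% and 0.111% of all genes did on days 1, 3 and 7. DESeq2 also called none, and 2 had an unadjusted p under 0.05, both higher with CL on day 1: *Cpt1a* (0.33 ± 0.14, adjusted p = 0.277) and *Acadm* (0.52 ± 0.25, adjusted p = 0.367). On day 7 the difference for *Cpt1b*, CL minus cold, was -0.11 with a 95% interval from -0.47 to 0.24, which leaves room for a difference of either sign, and for *Hadhb* -0.21 from -0.45 to 0.04.

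B cells, the most numerous annotated type, served as a non-adipocyte comparison. Of the 7 genes deep enough to test there none passed over the mean of the treated groups, where 0.739% of all genes did, and DESeq2 called none. At an unadjusted p under 0.05 stood *Acadl* (0.39 ± 0.13, adjusted p = 0.153) and *Acadvl* (0.47 ± 0.24, adjusted p = 0.379) upward, and *Hadha* (-0.29 ± 0.12, adjusted p = 0.268) and *Cpt1a* (-0.21 ± 0.09, adjusted p = 0.303) downward. Whether these changes differ from those in adipocytes was not tested.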

How the data were processed

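Nuclei of inguinal adipose tissue were indexed in wells, and the 4 deposited samples are sequencing lanes that pool all 21 mice, so mouse, group and cell type were taken from the deposited annotation of nuclei. Per the labels and the methods, the authors aligned reads to mm10 with Bowtie2, called peaks with MACS2, removed nuclei with a high doublet score from Scrublet and clustered the nuclei in Signac on the most variable peaks. The deposited matrix holds counts that were made binary: every stored entry was 1 or 0 (0 entries above 1). The entries were summed per mouse and cell type (at least 10 nuclei) and over the peaks on each of 21951 protein-coding genes of GENCODE vM21 plus 2000 bases upstream. Of the peaks on genes, 5.61% counted for more than 1 gene.

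Counts were tested with edgeR 4.0.16 (R 4.3.3, quasi-likelihood, TMM factors), with filterByExpr (minimum count 10, total 15, share of libraries 0.7), group terms over all mice, BH adjustment over all features and a threshold of 0.05. White and beige libraries of a mouse come from the same animal; a fit with mouse as a block was an alternative. DESeq2 1.42.0, other filters, scalings and peak sets and leaving out each mouse were also run. The tests were also run on simulated counts. Libraries were drawn independently there, so the simulation does not cover white and beige libraries that share an animal. The SE is the log2 fold change over the square root of F, and intervals (95%) are 1.96 SE wide on each side. Ratios used a pseudocount of 0.5.

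The members and all gene lists were chosen with earlier results of these data known. Named were all members, the 3 genes of each further list with the largest change among those past the threshold, and the 3 genes most like *Cpt1a* and *Cpt1b* over cell types (genes over 20 CPM in 1 type, pseudocount 1). The ratios, which were not tested, the comparison of groups in beige nuclei, the split of the *Hadha* and *Hadhb* peaks, the motifs AAGGTCA and CTAAAAATAG and the alternative without the mice after 1 day of CL were chosen after seeing the data. Mice were single animals, so p-values between groups measure the spread between mice. In beige against white they measure that between libraries, with the pairing within a mouse left out. The reporting summary of the paper describes 3 batches, done independently. The main fits held no batch term, so either spread can include differences between batches. Each peak of a nucleus can give at most 1 count, which compresses differences at well covered peaks.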

Additional observations from a re-analysis of the deposited data

How the results depend on the processing

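Higher accessibility in beige adipocytes was called at 8 of 9 genes with mouse as a block, with DESeq2, with the other scalings and filters and when each mouse was left out (8 to 8). With unshared peaks only, which leaves out *Cpt1b*, it was called at 7 of 8, and with peaks within 2000 bases of the start only at 5 of 8. Over all genes, 1591 of 10234 were called higher and 1726 lower with unshared peaks only. Mouse as a block called 1767 of 13457 higher and 2058 lower, and DESeq2 1578 of 12770 higher and 1784 lower. Between 11 and 18 member peaks were higher when each mouse was left out, 11 without the first D3_C mouse, which held the deepest white and beige libraries of its group. With the looser peak filter the start peaks of *Cpt2* (-0.0242) and of *Hadha* and *Hadhb* (-0.0214) changed sign, neither being called in either fit. Those of *Acadl* (adjusted p = 0.151) and *Acaa2* (adjusted p = 0.405) lost their calls under it. The calls by treatment were less stable. In all adipocytes the 3 calls became 0 with DESeq2, which gave 22 of the 54 values no adjusted p, and 0 to 3 when each mouse was left out, with 0 without the third day-0 mouse. In white adipocytes the 1 call, *Cpt1b* on D7_CL, became 0 with DESeq2, which gave 26 of the 54 values no adjusted p. It became 0 to 1 when each mouse was left out. Unshared peaks leave out *Cpt1b*, so this call could not be made with them and its absence there says nothing. In beige adipocytes the 1 call became 0 with DESeq2, with no filter and with peaks near the start only, 2 with unshared peaks only (*Hadha* on D1_CL, -1.40, besides *Acadl*), and 0 to 1 when each mouse was left out. A minimum of 30 nuclei could not be tried there, since it leaves no day-0 library. The mean over the treated groups went from 0 calls to 1 with unshared peaks only (*Hadhb*). Beige adipocytes led at 7 to 8 genes when each mouse was left out. Differences between CL and cold and in B cells were not called under any alternative. The ratio differences were 1.69 to 1.99 and 0.85 to 1.00 when each mouse was left out. Of the single genes and peaks, 276 values under other settings and 926 with a mouse left out kept their direction and side of the threshold, and 24 and 38 lost the call. Mouse as a block, where the white and beige libraries of an animal are paired, gave 19 member peaks higher and 1 lower of 30 tested, and changed no call of a gene. Of all 34063 peaks tested in that fit, 3805 were called higher and 5946 lower. With 3 mice a group and few beige nuclei, depth limits the comparisons of groups most after 1 day of CL.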
